A study of Mus musculus with 18 samples.

Results

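The 10 mouse genes described here carry many listed positions of RNA 5-methylcytosine (m5C): Cdv3, Irf2bp2, Arid1a, Maz, Mybl2, Ncl, Gatad1, Mllt6, Adgrl1 and Col16a1. A gene was chosen by the number of distinct positions that fell inside it over both deposited site lists, with 8 as the minimum. The lists hold 7870 distinct positions in all, of which 76 lie in no RefSeq gene and the others lie in 5112 genes. Of these genes, 19 reach the minimum, and the 10 described here are 10 of the 19. They hold 88 positions. The other 9 genes, which serve as the nearest comparison, are Trim71, Usp7, Gm38431, Hnrnpul2, Mtf2, Sf1, Sfpq, Taf10 and Wdr26, with 76 positions, of which Trim71 has the most, 11. Because the counts chose the genes, they are given as a description and no test was run on them.

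All samples were mouse embryonic stem cells, either Tet2 KO or wild type (WT), grown in LIF medium over a layer of embryonic fibroblasts. Bisulfite sequencing of poly(A) RNA gave 2 Tet2 KO and 2 WT replicates, and a position's level is the fraction read as unconverted cytosine. RNA sequencing gave 1 library per genotype without actinomycin D (0 h) and 1 each after 3 h and 6 h at 5 µg/ml of this inhibitor of transcription. The labels do not say how Tet2 was disrupted, how many clones were used, or whether replicates came from separate cultures. For m5C levels, p-values therefore measure a spread between replicates that could be purely technical. RNA sequencing had no replicates, so times stand in for them. There, p-values between genotypes rest on how the difference varied between times, and p-values of slopes rest on scatter around lines over the hours.

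m5C is made in RNA by the NSUN family of methyltransferases, of which NSUN2 acts on many mRNAs, and by TRDMT1. TET2 is a dioxygenase that oxidises 5-methylcytosine in DNA and RNA. ALYREF, an mRNA export adaptor, and YBX1, an mRNA-binding protein, are known readers of the mark.

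Most of the 10 genes encode nuclear regulators. Irf2bp2 is a corepressor partner of IRF2, Maz a zinc finger transcription factor that binds GC-rich DNA, and Mybl2 (B-Myb) a transcription factor of the cell cycle. Arid1a is a DNA-binding subunit of the BAF chromatin remodeller, Gatad1 a GATA-type zinc finger protein, and Mllt6 (AF17) a fusion partner of MLL in leukaemia. Ncl encodes nucleolin, an abundant nucleolar RNA-binding protein. Adgrl1 (latrophilin) is an adhesion G protein-coupled receptor at the cell surface, and Col16a1 is a fibril-associated collagen.

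The reference sequence around listed positions could be read from RefSeq promoter windows (GRCm38.p6, 250 bases before to 50 bases after an annotated start), which hold 7 of the 88 positions: 2 in Cdv3 and 5 in Maz. They are shown because they include 1 of the 2 shared Cdv3 positions and both of the high Maz positions listed in Tet2 KO alone. Counted from the annotated start of the window, with minus for before it, the Cdv3 positions lie at -111 and -138 bases. The Maz positions lie at -21, -154, 20, -9 and -217 bases, in the order printed below. All 7 still lie inside the span of their gene. Each run is 29 bases of the RNA strand, 5′ to 3′ in DNA letters, with the listed cytosine as the capital in the middle, and its mm10 coordinates on the minus strand follow the gene name.
Cdv3 chr9:103365076-103365104, both lists: aggtccggagacggCgggagcgcgggccc
Cdv3 chr9:103365103-103365131, Tet2 KO list: gctaggtccggagaCggcgggagctcgag
Maz chr7:127026486-127026514, Tet2 KO list: cggccggccgggggCggcgccccgagccc
Maz chr7:127026619-127026647, Tet2 KO list: ccccacccagggggCgtcgccgccgccgc
Maz chr7:127026445-127026473, WT list: gcccgtgcccccggCtcccgctgagctcc
Maz chr7:127026474-127026502, WT list: ggcggcgccccgagCccgggccccgcgcg
Maz chr7:127026682-127026710, WT list: ccgccgccgccgccCgggccccccgcccc

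The GC content of these runs lies between 72.4% and 100% of the 29 bases. The 2 Cdv3 positions are 27 bases apart and their surroundings share a run of 21 identical letters. The listed cytosine is letter 15 of that run at the position in both lists and letter 12 at the position listed in Tet2 KO alone, so they are not the same letter of a repeat. In 5 of the 7 runs the listed cytosine is followed by G. Over all genes, 144 distinct listed positions fell in such windows and every one was a cytosine on the listed strand. Of the 124 with a full run of 29 bases, 68 (54.8%) were followed by G, against 15.4% of all 5233054 cytosines in the 32851 windows. That background counts both strands of every window, whether or not RNA was read there, and base composition was not matched. The letters CNGGG, read from the listed cytosine on its own strand, began at 0 of the 7 positions and at 14 of the 124 (11.3%), against 2.94% of all cytosines. CTCCA began at 0 of the 7 and 0 of the 124, against 0.674% of all cytosines. On either strand, 92.3% of all windows hold CNGGG somewhere and 65% hold CTCCA. These counts describe letters in windows near starts and say nothing of an enzyme.

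Positions listed in both genotypes were the minority in these genes. Of the 88 positions, 25 were in the Tet2 KO list only, 49 in the WT list only and 14 in both, a shared fraction of 15.9% against 13.2% of all 7870 positions and 9.21% of the 76 in the other 9 genes. At a mean level of 0.2 or more in either list the shared fraction was larger everywhere, at 12 of 27 positions (44.4%) in the 10 genes, 661 of 1609 (41.1%) in all and 5 of 18 (27.8%) in the other 9. The Tet2 KO list held 39 of the 88 positions and the WT list 63. Over the whole lists the order was the other way, with 4781 positions in Tet2 KO and 4128 in WT, and in the other 9 genes it was 57 in Tet2 KO and 26 in WT. The WT lean therefore belongs to which 10 of the 19 genes were picked, and nothing is read from it. Every listed position had at least 0.1 in both replicates, the lowest value in each of the 4 replicate columns. The rule for listing is not given. A position absent from a list may have been under that level in a replicate, not covered or left out by another criterion. Read coverage is not given. Just under the minimum lie 19 genes with 7 positions, among them Etv4, Khsrp and Nup153, and 31 with 6.

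**Figure D1:**
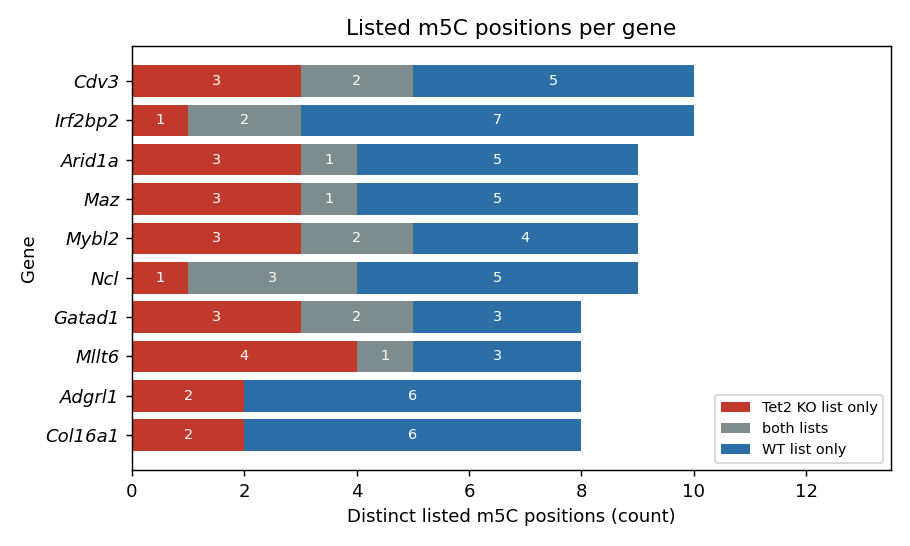
Number of distinct listed m5C positions in each of the 10 genes (x axis, count), split into positions in the Tet2 KO list only, in both lists and in the WT list only. Adgrl1 and Col16a1 have no shared position, and Ncl has the most, with 3.

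Irf2bp2 (chromosome 8, 126588296 to 126593986, minus strand) had 10 positions within 2435 bases, 3 listed in Tet2 KO and 9 in WT. Position 126593506 was listed in Tet2 KO only, with 0.273 and 0.545 in the 2 replicates. Only 15 bases away, position 126593521 was listed in WT only, with 0.818 and 0.75, the highest level of the gene. Neither genotype listed the other's cytosine here, although both levels are far above the lower limit of the lists. Position 126591466 was shared, at 0.64 and 0.4 in Tet2 KO against 0.588 and 0.459 in WT, and the replicates of the genotypes overlapped. Its neighbour 6 bases away, 126591472, was shared too, at 0.318 and 0.211 in Tet2 KO against 0.333 and 0.28 in WT. The remaining 6 positions, 126592837, 126593556, 126593616, 126593629, 126593637 and 126593900, were listed in WT only, with replicate levels between 0.1 and 0.226. Of the 10 positions, 7 lie within 1000 bases of the gene's 5′ boundary.

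Mybl2 (chromosome 2, 163054327 to 163084688, plus strand) had 9 positions, 5 listed in Tet2 KO and 6 in WT, and it carried the highest shared level of the 10 genes. Position 163054817, 490 bases from the 5′ boundary, had levels of 0.689 and 0.679 in Tet2 KO, against 0.841 and 0.733 in WT. Both Tet2 KO values were below both WT values, with a mean difference of -0.103, the widest of the 14 shared positions. The other shared position, 163081928, had 0.222 and 0.357 in Tet2 KO against 0.385 and 0.235 in WT, with overlapping replicates. A pair 6 bases apart deep in the gene was listed in Tet2 KO only and was high: 163065754 had 0.5 and 0.545, and 163065760 had 0.385 and 0.583. The nearest listed WT position was 9008 bases from that pair. Position 163058908 was listed in Tet2 KO only at 0.273 and 0.167. In WT alone, positions 163054729, 163054790, 163074768 and 163084250 had replicate levels between 0.1 and 0.192.

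Maz (chromosome 7, 127021450 to 127027188, minus strand) had 9 positions, 4 listed in Tet2 KO and 6 in WT. Its highest levels were the 2 printed above from the Tet2 KO list, 127026500 with 0.333 and 0.429 and 127026633 with 0.364 and 0.4. The first lies 12 bases from a WT-only position, 127026488, which had 0.118 and 0.154. Position 127026459 was WT only at 0.304 and 0.164, a wide gap between replicates. The shared position, 127026048, was low in both genotypes, with 0.13 and 0.164 in Tet2 KO and 0.165 and 0.112 in WT, and the replicates overlapped. Position 127023077 was Tet2 KO only at 0.167 and 0.118, and the WT-only positions 127026059, 127026080 and 127026696 ranged between 0.1 and 0.133. Of the 9 positions, 5 lie within 1000 bases of the 5′ boundary.

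Gatad1 (chromosome 5, 3639961 to 3647936) had 8 positions, all on the minus strand, 5 listed in each genotype. Position 3647888 was shared at 0.362 and 0.323 in Tet2 KO against 0.438 and 0.444 in WT, so the genotypes did not overlap. Position 3647739 was shared at 0.208 and 0.107 in Tet2 KO against 0.333 and 0.133 in WT, where they did. The first replicate was the higher one at 3647739 in both genotypes. Positions 3643362, 3647682 and 3647816 were Tet2 KO only, with replicate levels between 0.105 and 0.156. Positions 3647519, 3647647 and 3647666 were WT only, between 0.1 and 0.269. The promoter table has no entry for this gene, so no distance from a 5′ boundary was used.

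Mllt6 (chromosome 11, 97663122 to 97685461, plus strand) had 8 positions spread over 21174 bases, 5 listed in Tet2 KO and 4 in WT. Its shared position 97666350 was high in all 4 replicates, with 0.438 and 0.6 in Tet2 KO and 0.455 and 0.5 in WT, and was 1 of only 2 shared positions with a higher mean in Tet2 KO (the other was in Maz). The replicates of the genotypes overlapped. Tet2 KO only positions 97664296, 97669444, 97681114 and 97683608 had replicate levels between 0.1 and 0.211. WT only positions 97663624, 97683472 and 97684797 had between 0.105 and 0.273.

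Arid1a (chromosome 4, 133679008 to 133756769, minus strand) had 9 positions, 4 listed in Tet2 KO and 6 in WT, over 68302 bases. The shared position 133753129 had 0.208 and 0.333 in Tet2 KO against 0.312 and 0.354 in WT, with overlap. The closest pair of positions listed in opposite genotypes in these genes was here, 2 bases apart: 133753559 was Tet2 KO only at 0.1 and 0.111, and 133753557 was WT only at 0.111 and 0.118. These values all sit at or just above the lower limit of the lists. Tet2 KO only positions 133685589 and 133687572, far from the rest, had levels between 0.1 and 0.122. WT only positions 133720952, 133753016, 133753138 and 133753890 had between 0.1 and 0.273.

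Ncl (chromosome 1, 86344719 to 86359455, minus strand) had 9 positions, 4 listed in Tet2 KO and 8 in WT, and the most shared positions, 3. At 86356192 the levels were 0.268 and 0.283 in Tet2 KO against 0.33 and 0.303 in WT. At 86350819 they were 0.115 and 0.125 in Tet2 KO against 0.172 and 0.154 in WT. The genotypes did not overlap at either position. At 86350861 they were 0.193 and 0.16 in Tet2 KO against 0.333 and 0.121 in WT, where the WT replicates lay on both sides of Tet2 KO. Position 86350873 was Tet2 KO only at 0.141 and 0.119. The WT-only positions were 86350827, at 0.15 and 0.109, and a cluster of 4 at 86347184, 86347194, 86347206 and 86347284 with levels between 0.1 and 0.2. The nearest listed Tet2 KO position was 3535 bases from that cluster.

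Cdv3 (chromosome 9, 103353102 to 103365835, minus strand) had 10 positions, 5 listed in Tet2 KO and 7 in WT. At the shared position 103365090, the first of the printed sequences, levels were 0.25 and 0.237 in Tet2 KO against 0.385 and 0.281 in WT, with no overlap. At the shared position 103354085 they were 0.333 and 0.538 in Tet2 KO against 0.353 and 0.611 in WT, where the gap between replicates exceeded the gap between genotypes. Position 103365247 was Tet2 KO only at 0.167 and 0.357, and 20 bases away 103365267 was WT only at 0.5 and 0.381. Such a pair of neighbours listed in opposite genotypes also occurred 9 bases apart, at 103364805 (Tet2 KO only, 0.154 and 0.125) and 103364814 (WT only, 0.158 and 0.105). Position 103365117 was Tet2 KO only at 0.15 and 0.122, and 103353463, 103353822 and 103364611 were WT only with levels between 0.1 and 0.161.

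The membrane and matrix genes had no shared position. Adgrl1 (chromosome 8, 83900098 to 83941954, plus strand) had 2 positions in Tet2 KO, 83939147 and 83939751, with levels between 0.1 and 0.15. Its 6 WT positions were 83900233, 83900407, 83925038, 83929786, 83936062 and 83936115. Position 83900407, 309 bases from the 5′ boundary, was the highest of them at 0.455 and 0.333, and the others had between 0.1 and 0.2. Col16a1 (chromosome 4, 130047817 to 130099277, plus strand) had 2 positions in Tet2 KO, 130058328 and 130096449, both between 0.1 and 0.105. Its 6 WT positions, 130059746, 130067266, 130073114, 130073291, 130086244 and 130088664, had between 0.103 and 0.308. It has no mean level of 0.4 or more, and no listed position within 1000 bases of its 5′ boundary.

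**Figure D2:**
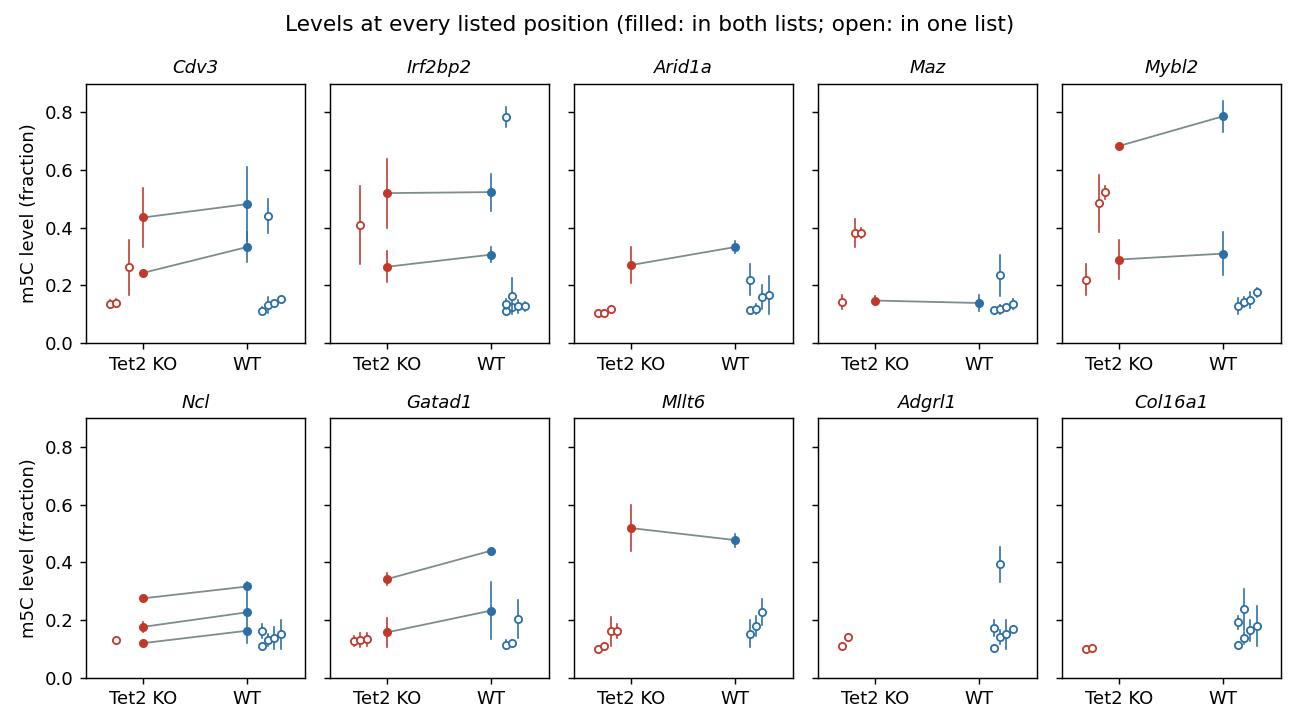
Level of every listed position in each gene (y axis, fraction unconverted), Tet2 KO left of WT. Circles are means of 2 replicates, vertical bars join the replicates, filled circles joined by a line are positions in both lists, and open circles are positions in 1 list, most of which lie under 0.2.

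High levels made up a larger share here than in the lists as a whole, which is a description with no test. A mean level of 0.4 or more in either genotype was found at 10 of the 88 positions (11.4%), against 265 of all 7870 (3.37%) and 7 of the 76 in the other 9 genes (9.21%). Shared positions had the higher levels. Their median was 0.273 in Tet2 KO and 0.325 in WT, against medians of 0.136 for positions in the Tet2 KO list only and 0.142 for those in the WT list only. The whole lists show the same order, with 0.203 in each genotype at shared positions, 0.14 for Tet2 KO only and 0.134 for WT only. The median gap between replicates was 0.036 in Tet2 KO and 0.049 in WT for the 10 genes, against 0.036 in both genotypes overall.

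Of the 74 positions listed in 1 genotype, 18 (24.3%) had a position of the other genotype's list within 30 bases, shared positions included. In the other 9 genes it was 12 of 69 (17.4%), and over the whole lists 326 of 6831 (4.77%). Genes with many positions have more close neighbours by construction, so the difference is a description of dense genes. Among positions at 0.4 or more in 1 list only, the 10 genes held 5, and 3 of them had such a neighbour: the Irf2bp2 pair and the WT-only Cdv3 position. The whole lists held 114 of that kind, of which 15 had one.

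Positions lay on the strand of their gene, and a minority lay near its start. For the 9 genes with a strand in the promoter table, 80 of 80 positions were on the gene's strand, against 99.1% of 5975 positions in protein-coding genes. A distance of up to 1000 bases from the 5′ boundary was found for 22 of the 80 (27.5%), against 18.4% of the 5975. In 7 of the other 9 genes it was 20 of 60 (33.3%). Left out there were Hnrnpul2, which has no strand assigned, and Gm38431, which is not protein-coding. The Gm38431 positions all lie 12570 bases or more from its 5′ boundary. The median distance was 3932 bases, against 7107 bases in those 7 genes and 12069 bases over protein-coding genes. Irf2bp2 contributed 7 of the 22, Maz 5 and Cdv3 4. Gene length was not held constant in this comparison, and exon, intron and UTR positions were not analysed here.

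**Figure D3:**
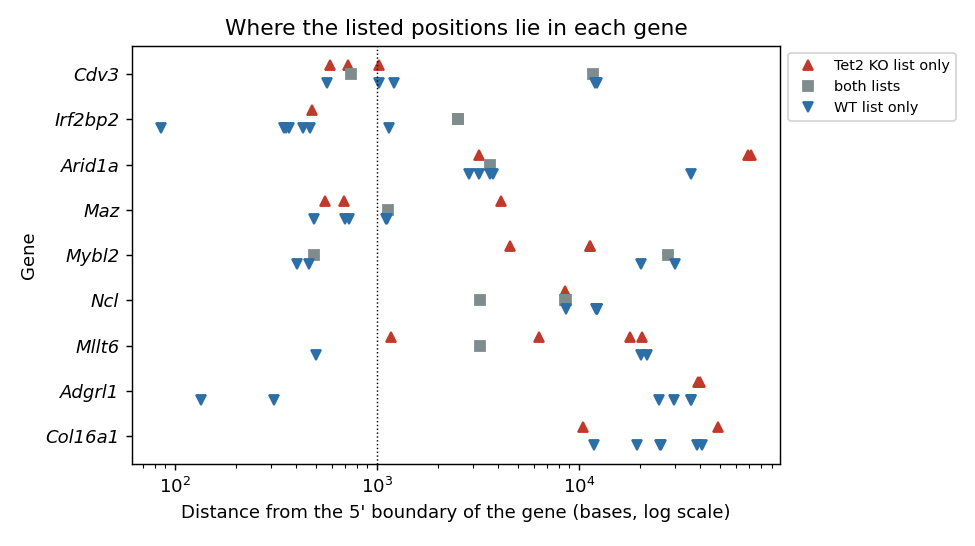
Distance of each listed position from the 5′ boundary of its gene (x axis, bases, log scale) for the 9 genes with a strand, with the Tet2 KO list only, both lists and the WT list only as separate symbols. The dotted line marks 1000 bases. Left of it lie 7 of the 10 Irf2bp2 positions and 5 of the 9 Maz positions, and all those of Ncl, Arid1a and Col16a1 lie to its right.

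At the 14 shared positions the mean level was lower in Tet2 KO at 12 and higher at 2, with a median difference (Tet2 KO minus WT) of -0.0447. Over all 1039 shared positions, 499 (48%) were lower in Tet2 KO and 536 higher, with a median difference of 0.0020. In the other 9 genes 6 of 7 were lower in Tet2 KO. Both Tet2 KO replicates lay below both WT replicates at 5 of the 14: Mybl2 163054817, Gatad1 3647888, Cdv3 103365090, and Ncl 86350819 and 86356192. The same held for 161 of the 1039, which is 15.5%. The reverse, both Tet2 KO replicates above both WT replicates, held at 0 of the 14 and at 202 of the 1039 (19.4%).

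None of these differences passed a test. With limma on arcsine square root levels over all 1039 shared positions and Benjamini-Hochberg adjustment, 0 positions (0%) had an adjusted p under 0.05, with 79 under 0.05 before adjustment and none of them in the 10 genes. The adjusted p of the 14 positions lay between 0.647 for Gatad1 3647888 and 0.993 for Irf2bp2 126591466. The count of lower means depended on single replicates: 9 of 14 were lower without Tet2 KO replicate 1 and 8 of 14 without WT replicate 1, against 12 of 14 without Tet2 KO replicate 2 or WT replicate 2.

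**Figure D4:**
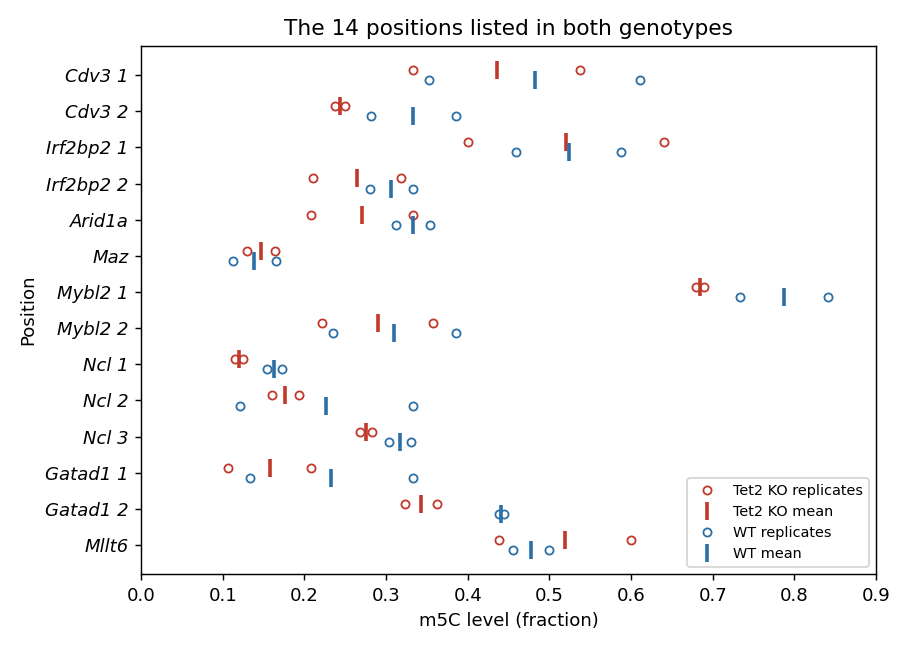
Levels at the 14 positions listed in both genotypes (x axis, fraction), with Tet2 KO above WT in each row. Open circles are replicates and bars are means of 2. Positions of a gene are numbered by rising coordinate. Mean Tet2 KO levels lie left of WT except in Maz and Mllt6, and replicates overlap at 9 of the 14.

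The RNA table gives RPKM, a read density scaled by length and library size, for 14864 loci in 6 libraries, and 11855 loci with a mean of at least 1 were tested. Median RPKM lay between 3.57 and 5.31 in libraries labelled Tet2 KO and between 3.43 and 5.48 in those labelled WT, lowest at 6 h in each, and the 10 most abundant loci took between 37.2% and 43% of the sum. Read depth is not given. Tet2 itself had 23, 11.2 and 10.1 RPKM at 0, 3 and 6 h in the libraries labelled Tet2 KO, against 23.7, 17.9 and 12.5 RPKM in those labelled WT (log2 difference -0.32, SE 0.20, limma adjusted p = 0.593). At 0 h it did not separate the genotypes. A value over the whole gene does not show a deleted stretch, so it is no check of the labels. Of 12 pluripotency markers 10 were in the table, with summed levels of 1064 to 1223 RPKM in Tet2 KO libraries and 902 to 1250 in WT, while Sox2 and Dppa5a were not matched. Of these 10 markers, 7 had higher and 3 lower values in Tet2 KO, with a median log2 difference of 0.18 beside 0.04 for all loci. Only Zfp42 (Rex1) was called, as lower in Tet2 KO (log2 difference -1.95, SE 0.18, limma adjusted p = 0.0434). That call ended whichever library was left out (adjusted p 0.0552 to 0.399), and with no filter, quantile normalization, no trend or no time block. Zfp42 and Klf4 fell over the hours, by 0.35 and 0.40 log2 units per hour (limma adjusted p = 0.00725 and 0.0196). Without single libraries that p reached 0.0948 and 0.119. The Zfp42 call ended only without the WT 6 h library. That of Klf4 ended without any WT library or the Tet2 KO 0 h library. The Klf4 call also ended under quantile normalization (0.104) or median centring (0.107), where Zfp42 narrowly passed (0.0476 and 0.0488). Of 15 fibroblast markers 13 were matched, with sums of 874, 1086 and 1251 RPKM at 0, 3 and 6 h in Tet2 KO, against 872, 1371 and 1002 RPKM in WT. The sum was lowest at 0 h in both, no fibroblast marker was called in any contrast, and the part of feeder RNA in the levels and slopes was not tested. In such bulk RNA, fewer cells of a type and less RNA per cell cannot be told apart.

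All 10 genes were tested. On the RPKM scale, which is per length, Ncl and Mybl2 were the most abundant, with means over the 6 libraries of 380 and 152. Cdv3 averaged 58.3, Gatad1 42.7, Maz 25.5, Arid1a 11.9, Adgrl1 11.1 and Mllt6 8.87. Col16a1 at 4.16 and Irf2bp2 at 2.76 were below the middle of the table. Irf2bp2 thus had the joint highest number of positions of the 10 genes at their lowest mean RPKM. That mean includes the libraries treated with actinomycin D. At 0 h Irf2bp2 had 5.59 RPKM in Tet2 KO and 6.68 in WT, against 3.3 and 5.26 for Col16a1. The medians of those 0 h libraries were 5.31 RPKM in Tet2 KO and 5.48 in WT.

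No gene of the 10 passed the test between genotypes. The contrast with time as a block called 9 of the 11855 loci (0.0759%), 1 higher and 8 lower in Tet2 KO, and none was among the 10 genes, whose adjusted p lay between 0.472 and 0.979. Their log2 differences ran between -0.47 for Mllt6 and 0.51 for Ncl, with a median of 0.06 against 0.04 for all loci.

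Over the hours of actinomycin D, Arid1a fell and no other of the 10 genes passed. Arid1a had 19.3, 8.53 and 6.82 RPKM at 0, 3 and 6 h in Tet2 KO libraries, against 18.1, 11.4 and 7.34 RPKM in WT. Both genotypes dropped at each step, to 35.4% of the 0 h value at 6 h in Tet2 KO and 40.4% in WT. Its slope was -0.21 log2 units per hour (SE 0.04, limma adjusted p = 0.0273). Over all tested loci 938 fell (7.91%) and 14 increased (0.118%), so 1 of 10 is near the background. RPKM is scaled to each library, so these slopes are relative, and the median slope of all loci was -0.05 per hour. The Arid1a call ended under quantile normalization (adjusted p = 0.146) or centring on the median (0.138), and without any 1 library but the 3 h one of Tet2 KO. That p was 0.138 without the 0 h and 0.0712 without the 6 h library of Tet2 KO, and 0.137, 0.0707 and 0.14 without those of WT at 0, 3 and 6 h.

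Irf2bp2 had the steepest slope of the 10 but did not pass. Its RPKM was 5.59, 0.966 and 1.94 at 0, 3 and 6 h in Tet2 KO libraries, against 6.68, 0.966 and 0.389 in WT. The 3 h values were alike and the 6 h values were not, at 34.8% of 0 h in Tet2 KO and 5.81% in WT. The slope was -0.30 log2 units per hour (SE 0.09, limma adjusted p = 0.0771). It passed when the Tet2 KO library of 3 h (0.0144) or that of 6 h (0.00989) was left out. Those fits called 1476 and 749 of the 11855 loci, against 952 with all libraries. The difference of slopes, Tet2 KO minus WT, was 0.22 per hour (SE 0.16, adjusted p = 1). It was 0.61 and passed without the Tet2 KO 0 h library (adjusted p = 0.0378). That fit called 293 loci, against 0 with all libraries. The difference was -0.17 without the Tet2 KO 6 h library (0.944) and -0.03 without the WT 0 h library (0.99). At these RPKM values the log2(RPKM + 1) scale understates fold changes.

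Mllt6 had 11.1, 4.92 and 5.98 RPKM in Tet2 KO libraries, against 14.1, 10.2 and 6.85 RPKM in WT, with a slope of -0.15 per hour (SE 0.05, limma adjusted p = 0.128). The Tet2 KO value was the lower one at each time. Mybl2 had 175, 198 and 123 RPKM in Tet2 KO against 188, 106 and 125 in WT, so the genotypes stood apart at 3 h only. Maz stayed between 23.4 and 28.3 RPKM in Tet2 KO and between 22 and 25.8 in WT. Gatad1 had 42.3, 29.5 and 42.9 RPKM in Tet2 KO against 48.6, 50.7 and 42.3 in WT. None of these genes had a slope with an adjusted p under 0.05.

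The Ncl value belongs to a locus that also holds Gm24148, Mir3535 and Snora75, which cannot be split here. It had 407, 468 and 437 RPKM in Tet2 KO libraries, against 202, 448 and 319 RPKM in WT. The WT 0 h library was the low one. Its slope, 0.06 per hour (SE 0.06, limma adjusted p = 0.569), was the single positive one among the 10 and became -0.019 without that library. Cdv3 had 70.7, 66.5 and 54.5 RPKM in Tet2 KO against 56.2, 59.9 and 41.7 in WT, higher in Tet2 KO at each time.

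Adgrl1 had 12.3, 10.6 and 10.5 RPKM in Tet2 KO libraries, against 13.9, 11.4 and 8.14 RPKM in WT. Col16a1 had 3.3, 3.21 and 3.67 RPKM in Tet2 KO, against 5.26, 5.44 and 4.09 RPKM in WT. The Col16a1 values of Tet2 KO all lay below those of WT (log2 difference -0.43, SE 0.22, limma adjusted p = 0.538). Collagens are also expressed by fibroblasts, and of the 13 fibroblast markers 9 had lower and 4 higher values in Tet2 KO, with a median log2 difference of -0.11 beside 0.04 for all loci. Their part in the Col16a1 value was not tested.

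**Figure D5:**
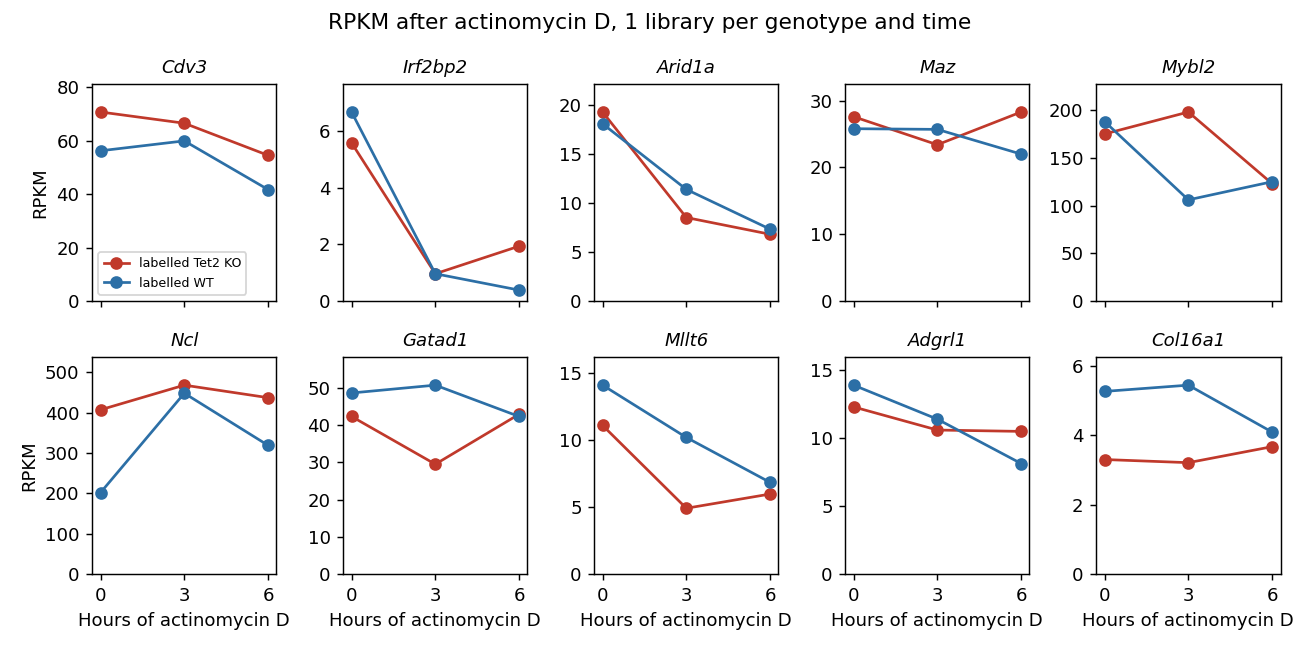
RPKM of the 10 genes (y axis, linear, own scale per gene) at 0, 3 and 6 h of actinomycin D (x axis), with libraries labelled Tet2 KO listed before those labelled WT. Each point is 1 library. Arid1a, Irf2bp2, Mllt6, Cdv3, Mybl2 and Adgrl1 are lower at 6 h than at 0 h in both genotypes, and only the Arid1a slope passed the test.

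The slopes of the 10 genes had a median of -0.07 log2 units per hour, with 9 negative, beside -0.05 for all loci. At 6 h the median locus stood at 82.4% of its 0 h RPKM in Tet2 KO and 75% in WT. No difference of slopes between genotypes passed: 0 of 11855 loci (0%) passed, with 488 under 0.05 before adjustment, and none of the 10 genes was among them. Of the other genes at the minimum, 8 were tested and Trim71 was not matched in the table. The values of Gm38431, Hnrnpul2 and Sfpq belong to loci that also hold other genes, which cannot be split here. The slopes of the 8 had a median of -0.01 per hour, and none was called in any of the 3 contrasts.

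Among 14 known writers, erasers and readers of m5C, 8 were tested: Nop2, Nsun2, Nsun3, Nsun4, Trdmt1, Tet2, Alyref and Ybx1. None was called in the genotype, slope or slope difference contrast. The smallest p-values were those of Tet2, whose slope was -0.17 per hour (limma adjusted p = 0.0603), and of Nop2, the nucleolar methyltransferase of ribosomal RNA, at -0.14 (0.074). Trdmt1, a tRNA methyltransferase, had 3.29, 6.28 and 6.95 RPKM in Tet2 KO libraries against 1.73, 4.78 and 4.03 RPKM in WT, with a slope of 0.15 (adjusted p = 0.147). Nsun4, a mitochondrial methyltransferase, had 4.63, 23.8 and 4.13 RPKM in Tet2 KO against 4.06, 4.25 and 2.1 in WT. The Tet2 KO value at 3 h stands far above the other 5, and the genotype difference was 1.04 (adjusted p = 0.444). Nsun2, added after its values were seen, had 88.6, 90 and 89.8 RPKM in Tet2 KO against 75.8, 84.8 and 67.1 in WT.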

How the data were processed

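Of 18 samples, 10 were used, and the 8 from m5C immunoprecipitation and its inputs were left out. The authors deposited site lists with the m5C level of each position per replicate as a fraction, per the file headers, and a table of RPKM per locus. Neither gives coverage or depth, so the precision of a level is known only from the gap between replicates. The submitters' processing notes name, among other tools, Trimmomatic, Bowtie2 and Cufflinks, and the builds mm10 and GRCm38. Versions, roles and the rule for listing a site are not given in those notes or the headers. Unconverted RNA counts as m5C in this assay, and no conversion control was used here.

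The members and lists were chosen with earlier results of these data known. The site lists give no gene names, so positions were placed in RefSeq genes (GRCm38.p6) by position alone and matched between lists by chromosome, position and strand. The 5′ boundary is the end of the gene's outermost span on its strand. The 10 genes and Tet2 were always named, with their positions of highest level and widest difference. Writers, erasers and readers were named by smallest p.

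limma 3.58.1 in R 4.3.3, with empirical Bayes moderation, was run on log2(RPKM + 1) for loci averaging 1 RPKM or more, with a mean trend. It was also run on arcsine square root levels at shared positions, without a trend. Tests were two-sided with Benjamini-Hochberg adjustment at 0.05 over all features. Time was a block in the genotype contrast, and the slope fit had genotype as a factor. The fits were tested on simulated data. Alternatives changed the pseudocount, filter, scaling, trend, libraries, level minimum and counting of positions.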

Additional observations from a re-analysis of the deposited data

How the results depend on the processing

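No shared position passed under any alternative run: 0 were called with the replicate block, which left 87 with an unadjusted p under 0.05, and 0 without any single replicate. Over the 1039 shared positions, replicates that share a number did not deviate together (r = -0.002). A uniform shift would not show in this correlation, and noise at single positions could hide a pairing, so it does not settle whether replicates were paired. Without single libraries the calls ranged from 0 to 12 loci for genotype, 0 to 1476 for the slope, 0 to 293 for the slope difference, and 0 to 2 of the 10 genes for the slope. Genotype called 4 loci with no filter, 15 with a mean of 5 RPKM or more, 3 with quantile normalization and 5 with no trend. Slope called 114 loci with quantile normalization and 69 with each library centred on its median, with 0 of the 10 genes each. Summing both lists' entries gave 40 genes with 8 or more, and positions at 0.2 or more gave 0. Some values that had not passed the test turned sign, and the cause was not tested. With quantile normalization the slope became 0.0324 for Maz, 0.0206 for Gatad1 and 0.0709 for Col16a1. With median centring it became 0.0136 for Cdv3, 0.0643 for Maz, 0.0649 for Gatad1, 0.0031 for Adgrl1 and 0.0646 for Col16a1. The genotype difference of Adgrl1 became -0.0519 with quantile normalization and -0.0110 with median centring. Without single libraries slopes ranged from -0.0448 to 0.0045 for Maz, -0.0190 to 0.1006 for Ncl, -0.0601 to 0.0090 for Gatad1 and -0.0420 to 0.0184 for Col16a1. The slope difference of Irf2bp2 ranged from -0.1706 to 0.6057. Genotype differences ranged from -0.1105 to 0.5421 for Irf2bp2, -0.0222 to 0.2193 for Maz, -0.0633 to 0.4372 for Mybl2 and -0.1343 to 0.1156 for Adgrl1. Gene names could not be split because the site lists give none. Irf2bp2 and Col16a1 have no value at a mean of 5 RPKM or more. Counting positions on the gene's strand only (19 genes) or protein-coding genes only (18), both chosen after seeing the data, stayed within 1.5 times the 19.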
